A study of Mus musculus with 8 samples.

Results

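Expression of 7 genes of follicular helper T cells was described in CD4+ T cells of mice with a wild-type (WT) or delta Foxp3 allele. The members were the transcription factors and coactivator Bcl6, Ascl2, Tox2 and Pou2af1, the chemokine receptor Cxcr5, the adaptor Sh2d1a and the cytokine Il21. They were taken by name, as all probe sets that the platform annotation assigns to one of these symbols, which gave 12 of the 45037 probe sets tested and 7 of the 18193 genes with a probe set. Pou2af1, Cxcr5 and Sh2d1a had 1 probe set each. Bcl6, Il21 and Tox2 had 2 each and Ascl2 had 3, and these did not all behave alike.

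Follicular helper T cells are the CD4+ cells that enter B cell follicles and help B cells in germinal centres. Bcl6 is the repressor that sets up their program, CXCR5 draws them to follicles along the chemokine CXCL13, the adaptor SAP, product of Sh2d1a, holds them in contact with B cells through SLAM family receptors, and the IL-21 they release acts on B cells. Follicular regulatory T cells carry Foxp3 and share Bcl6, CXCR5 and SAP with them, but make little IL-21.

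Both alleles were tagged with enhanced green fluorescent protein (EGFP), so that cells using the Foxp3 locus could be sorted by fluorescence from hemizygous males, which have a single copy of this X-linked gene. The 8 arrays fell into 4 groups: 3 arrays of EGFP+ cells of the delta allele, 1 of EGFP- cells of the delta allele, 3 of EGFP+ cells of the WT allele and 1 of EGFP- cells of the WT allele. No source used here says what the delta allele lacks, which strain, age and organ were used, or whether the arrays of a group came from separate animals. P-values therefore measure only the spread between these arrays, which may be technical. Total RNA was labelled for Affymetrix expression arrays, and values are log2 of the deposited intensity.

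The labels were checked first on Foxp3 itself. Its probe set 1420765_a_at read 11.1, 11.51 and 11.21 in the delta EGFP+ arrays, 6.14 in the delta EGFP- array, 4.75, 4.86 and 4.64 in the WT EGFP+ arrays and 4.52 in the WT EGFP- array. The low level in cells sorted for a WT Foxp3 reporter goes against their label. No source used here says whether its probes cover the part in which the alleles differ. Other regulatory T cell genes did separate the WT arrays by label: Ikzf2 read 12.26, 12.13 and 12.09 in WT EGFP+ arrays against 7.98 in the WT EGFP- array. Its gap was smaller in the delta arrays, with 12.12, 12.11 and 12.09 in delta EGFP+ against 11.48 in delta EGFP-. The 5 regulatory T cell markers, Foxp3 among them, summed to 10787 to 14129 in delta EGFP+ and 4896 in delta EGFP- arrays. In WT EGFP+ arrays they summed to 9718 to 13659, and to 1092 in the WT EGFP- array. WT and delta below therefore stand for arrays labelled so, and every direction rests on those labels. T cell markers were bright throughout, with a summed intensity of the 6 measured markers of 25926 to 27181 in delta EGFP+, 27589 in delta EGFP-, 28173 to 30577 in WT EGFP+ and 28721 in WT EGFP- arrays. Array medians lay between 53.3 and 54.8 intensity units. Over all probe sets, log2 values correlated at r = 0.9879 to 0.9912 within delta EGFP+ and 0.98 to 0.9918 within WT EGFP+, against 0.9601 to 0.9688 between them.

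Promoter sequences are shown for the genes that rose in delta EGFP+ cells, since these members passed the test between the alleles. RefSeq (GRCm38.p6) held a start site for 5 of the 7 members, in 10 windows from 250 bases before to 50 bases after the start. The 250 bases before the start are printed 5′ to 3′ on the gene's strand, at chr3:37232637-37232886 (minus strand) for Il21, chr2:163202877-163203126 (plus strand) for the first of 5 Tox2 windows and chr9:51213440-51213689 (plus strand) for Pou2af1. Capitals mark matches to the motifs searched.
Il21: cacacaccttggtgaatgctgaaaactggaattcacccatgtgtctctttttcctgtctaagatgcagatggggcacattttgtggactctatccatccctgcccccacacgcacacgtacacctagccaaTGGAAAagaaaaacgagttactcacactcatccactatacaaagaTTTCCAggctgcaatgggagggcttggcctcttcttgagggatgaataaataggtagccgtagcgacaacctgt
Tox2: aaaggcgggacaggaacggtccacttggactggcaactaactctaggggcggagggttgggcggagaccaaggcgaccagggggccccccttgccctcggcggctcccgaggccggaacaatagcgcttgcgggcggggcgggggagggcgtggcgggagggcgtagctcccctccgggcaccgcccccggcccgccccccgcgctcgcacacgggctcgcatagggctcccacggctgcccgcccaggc
Pou2af1: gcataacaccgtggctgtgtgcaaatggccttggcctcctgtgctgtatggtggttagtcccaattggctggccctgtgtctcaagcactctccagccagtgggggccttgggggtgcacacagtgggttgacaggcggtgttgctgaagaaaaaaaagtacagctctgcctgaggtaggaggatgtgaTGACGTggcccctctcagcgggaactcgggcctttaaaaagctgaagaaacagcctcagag

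The motifs were searched on both strands of the whole windows. Forkhead was TGTTTAC, found in 3.66% of 32544 distinct RefSeq promoter windows of the same length, NFAT was TGGAAA (21.5%) and the octamer was ATTTGCAT (1.75%). AP-1 was TGANTCA (7.79%), STAT was TTCNNNGAA (8.33%) and CRE was TGACGT (7.55%). Il21 matched NFAT at positions -119 and, on the opposite strand, -74 from its start. Pou2af1 matched CRE at -61. None of the 5 Tox2 windows, nor the Ascl2 window, matched any of the 6 motifs. Of the 2 Bcl6 windows, the first matched STAT at -118 and CRE at -73, and the second matched STAT at -168, -122 and -88 and NFAT at -164, where NFAT overlaps the first of these STAT matches. No window of these 5 genes matched the forkhead letters. Such matches describe the letters of the windows and show no binding.

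Among EGFP+ cells, part of the set was higher with the delta allele. Il21, Tox2 and Pou2af1 rose by 12.7-, 4.01- and 3.38-fold, while Bcl6, Cxcr5, Sh2d1a and Ascl2 did not pass the test. Thus 3 of 7 genes rose and 0 fell, against 10.4% of all genes called higher and 6.02% called lower. By probe set, 3 of 12 rose and 0 fell, against 7.35% and 5.39% of all probe sets. The threshold was a limma p of 0.05 after adjusting by Benjamini and Hochberg across the whole array, and the median difference of the 7 genes was 0.29 against 0.02 over all genes. In a bulk sample, fewer cells of a type and less RNA per cell cannot be told apart.

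Il21 (chromosome 3, 37222759 to 37232636 in GRCm38.p6), the cytokine by which these cells drive B cell growth and antibody secretion, had the largest difference of the 7. Its brighter probe set 1450334_at read 8.18, 8.09 and 8.01 in delta EGFP+ arrays (8.09 ± 0.08, SD, n = 3) against 4.27, 4.45 and 4.56 in WT EGFP+ arrays (4.43 ± 0.15, SD, n = 3). The groups lay far apart, and the WT EGFP+ values were below the median of all probe sets, 5.75. They may not stand above background, so that 12.7-fold is the ratio of the measured means. The log2 difference was 3.67 (SE 0.12, 95% interval 3.39 to 3.94, limma adjusted p = 1.4e-05), and within the sets of arrays that share the opening digits of their titles it was 3.91, 3.64 and 3.45. The second probe set, 1447288_at, gave another picture. It stayed between 4.12 and 4.47 in all 6 EGFP+ arrays, with 4.33, 4.32 and 4.3 in delta against 4.47, 4.15 and 4.12 in WT, a difference of 0.07 (SE 0.13, limma adjusted p = 0.82). Its rank among all probe sets ran from percentile 11.5 to percentile 31.0, so it was dim on every array.

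Tox2 (chromosome 2, 163203058 to 163324172), an HMG-box factor that supports the follicular helper program, also separated the alleles. Probe set 1440156_s_at read 10.33, 10.3 and 10.19 in delta EGFP+ arrays (10.27 ± 0.07, SD, n = 3) against 7.99, 8.36 and 8.47 in WT EGFP+ arrays (8.27 ± 0.25, SD, n = 3). All delta values exceeded all WT values, with a log2 difference of 2.0 (SE 0.15, 95% interval 1.66 to 2.34, limma adjusted p = 0.00024) and 2.34, 1.94 and 1.72 within the title sets. The second probe set did not show it. 1457757_at read 4.82, 5.05 and 5.18 in delta against 4.69, 4.95 and 5.3 in WT EGFP+ arrays, a difference of 0.04 (SE 0.18, limma adjusted p = 0.94) at percentiles 26.6 to 46.7. The suffix _s_at marks probes shared by several transcripts, while _at marks a single one, so choosing the most specific suffix ended the Tox2 call and left 2 genes called.

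Pou2af1 (chromosome 9, 51213690 to 51240079) encodes the coactivator OCA-B of octamer factors, strongly expressed in B cells and present in follicular helper cells. It read 7.31, 7.41 and 7.76 in delta EGFP+ arrays (7.49 ± 0.23, SD, n = 3) against 5.81, 5.0 and 6.4 in WT EGFP+ arrays (5.73 ± 0.71, SD, n = 3). The groups did not overlap, although the WT arrays were spread more widely. The log2 difference was 1.76 (SE 0.32, 95% interval 1.0 to 2.51, limma adjusted p = 0.011), and 1.5, 2.41 and 1.35 within the title sets.

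Because Pou2af1 is a B cell gene as well, B cell markers were read beside it. Of 14 listed B cell markers 12 were measured, none at 0 and 5 below the median of all probe sets in every array, and their summed intensity was 1017 to 1892 in delta EGFP+, 1916 in delta EGFP-, 3357 to 7813 in WT EGFP+ and 5448 in WT EGFP- arrays. Without Ighm, the immunoglobulin mu chain, the other 11 markers summed to 437 to 533 in delta EGFP+, 617 in delta EGFP-, 496 to 643 in WT EGFP+ and 519 in WT EGFP- arrays, so that the EGFP+ groups overlapped. Ighm fell by 2.24 (limma adjusted p = 0.012) and Bank1, a B cell scaffold, fell by 1.09 (0.0071), while 0 of the 12 rose. Ms4a1, the B cell antigen CD20, read 4.79, 4.92 and 4.81 in delta EGFP+ against 5.51, 5.29 and 6.43 in WT EGFP+ arrays and did not pass (limma adjusted p = 0.073). Cd79b read 7.11, 6.55 and 6.32 against 6.15, 6.43 and 6.9. Differences were positive, without passing, for Cd79b (0.17), Ebf1 (0.07) and Cd22 (0.02), and negative for the other measured B cell markers. The 4 plasma cell markers summed to 193 to 315 in delta EGFP+ against 380 to 1550 in WT EGFP+ arrays. Jchain, the brightest of them in WT EGFP+ arrays, read 6.18, 4.59 and 7.29 in delta EGFP+ against 7.72, 8.45 and 10.34 in WT EGFP+ arrays. It did not pass (-2.82, limma adjusted p = 0.061). Neither did Sdc1 (-0.1), Mzb1 (-0.3) or Tnfrsf17 (0.11). Within WT EGFP+, replicate 3 had the highest Pou2af1, B cell sum and plasma cell sum. Between replicates 1 and 2 the order turned. Pou2af1 read 5.81 and 5.0, with B cell sums of 3357 and 4379 and plasma cell sums of 380 and 495. The part of B cells in the Pou2af1 values was not tested.

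**Figure D1:**
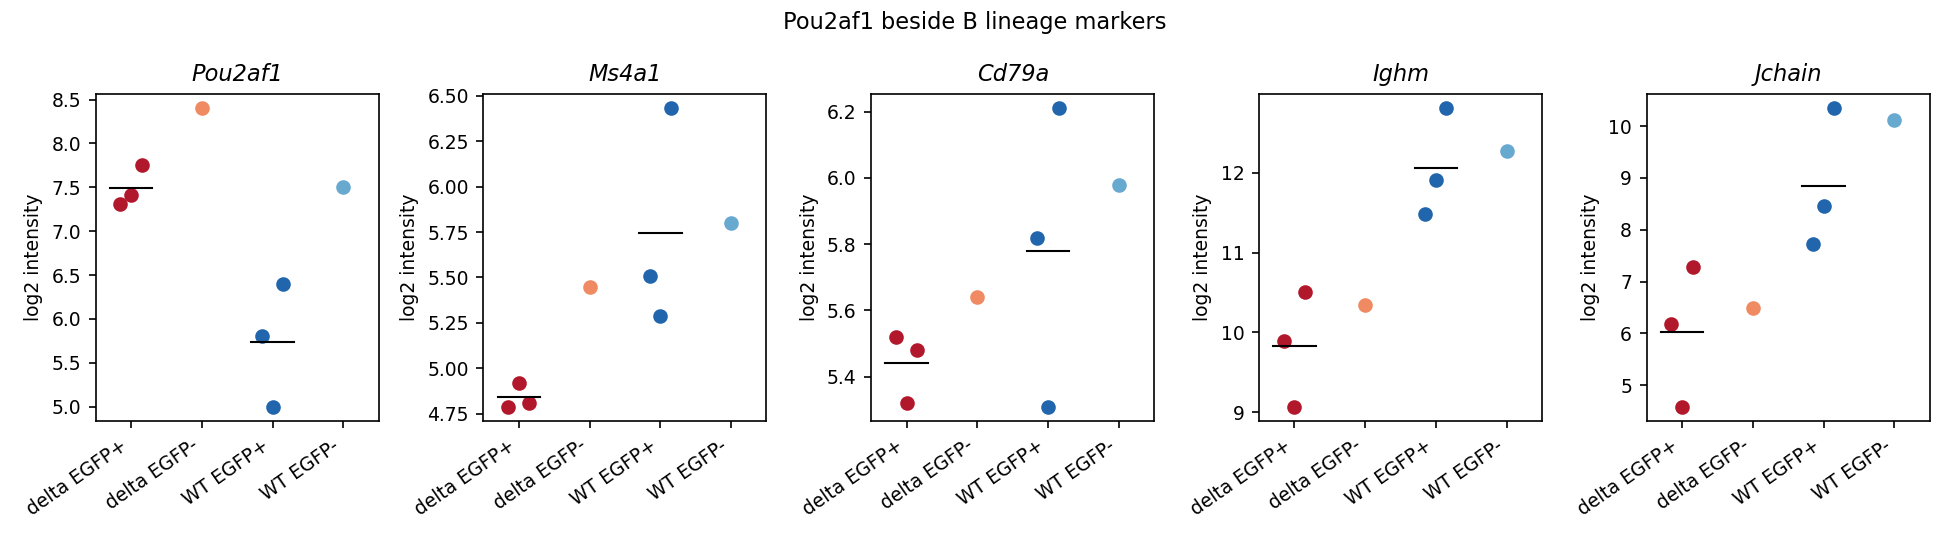
Log2 intensity of Pou2af1 and of 4 B lineage genes in each of the 8 arrays, with the mean of each group of 3 arrays as a line. Pou2af1 is higher in the delta EGFP+ arrays (7.31 to 7.76) than in the WT EGFP+ arrays (5.0 to 6.4), while Ighm is lower there.

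Sh2d1a (X chromosome, 42502565 to 42522097) read 10.38, 10.38 and 10.28 in delta EGFP+ arrays (10.35 ± 0.06, SD, n = 3) against 9.96, 10.21 and 10.0 in WT EGFP+ arrays (10.06 ± 0.13, SD, n = 3). It was bright in every array. The groups did not overlap, but the difference of 0.29 (SE 0.11, 95% interval 0.03 to 0.56) missed the threshold (limma adjusted p = 0.16). With it, 4 of 7 genes had all delta EGFP+ values above all WT EGFP+ values, which held for 20.2% of all genes.

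Bcl6 (chromosome 16, 23965050 to 23988866), the master repressor, overlapped between the alleles on both probe sets. 1421818_at read 7.91, 7.59 and 8.07 in delta EGFP+ arrays (7.86 ± 0.24, SD, n = 3) against 7.97, 7.35 and 8.05 in WT EGFP+ arrays (7.79 ± 0.38, SD, n = 3), a difference of 0.07 (SE 0.21, 95% interval -0.42 to 0.56, limma adjusted p = 0.9). 1450381_a_at read 6.96, 6.99 and 6.7 in delta EGFP+ arrays against 6.75, 6.76 and 7.25 in WT EGFP+ arrays, a difference of -0.03 (SE 0.17, 95% interval -0.42 to 0.36, limma adjusted p = 0.94). The sign of both was small against the spread and turned under several alternatives.

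Cxcr5 (chromosome 9, 44511787 to 44526444), the follicle homing receptor, varied widely within both groups. It read 7.99, 6.91 and 8.33 in delta EGFP+ arrays (7.74 ± 0.74, SD, n = 3) against 7.33, 8.17 and 7.75 in WT EGFP+ arrays (7.75 ± 0.42, SD, n = 3). The group means nearly coincided, and the 95% interval of the difference, -0.86 to 0.85, was the widest of the 12 probe sets (limma adjusted p = 1.0). Within the title sets the difference was 0.66, -1.26 and 0.58, the negative one from the arrays numbered replicate 2. Delta EGFP+ replicate 2 also had the highest Cd8a of the 8 arrays, 8.84, against 8.5 and 5.95 in the other delta EGFP+ arrays, 8.52 in the delta EGFP- array, where Cxcr5 was highest, 5.22 to 6.36 in the WT EGFP+ arrays and 6.28 in the WT EGFP- array. The other measured CD8 T cell marker, Cd8b1, was highest in the WT EGFP- array (7.67), with 7.59 in the delta EGFP- array. It read 6.82, 7.41 and 6.56 in delta EGFP+ arrays and 6.86, 6.66 and 7.13 in WT EGFP+ arrays. The part of CD8 T cells in these values was not tested.

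Ascl2 (chromosome 7, 142966822 to 142969264), a basic helix-loop-helix factor that induces Cxcr5, was dim on all 3 probe sets. The brightest, 1460514_s_at, read 5.61, 5.51 and 5.91 in delta EGFP+ arrays (5.68 ± 0.21, SD, n = 3) against 5.43, 5.54 and 5.46 in WT EGFP+ arrays (5.48 ± 0.06, SD, n = 3), a difference of 0.2 (SE 0.13, 95% interval -0.1 to 0.51, limma adjusted p = 0.42). The other probe sets lay lower. 1422396_s_at averaged 4.12 ± 0.19 in delta and 3.93 ± 0.09 in WT EGFP+ arrays (SD, n = 3 each), and 1432018_at averaged 3.56 ± 0.07 in delta and 3.46 ± 0.06 in WT EGFP+ arrays. Neither passed the test (0.43 and 0.67).

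**Figure D2:**
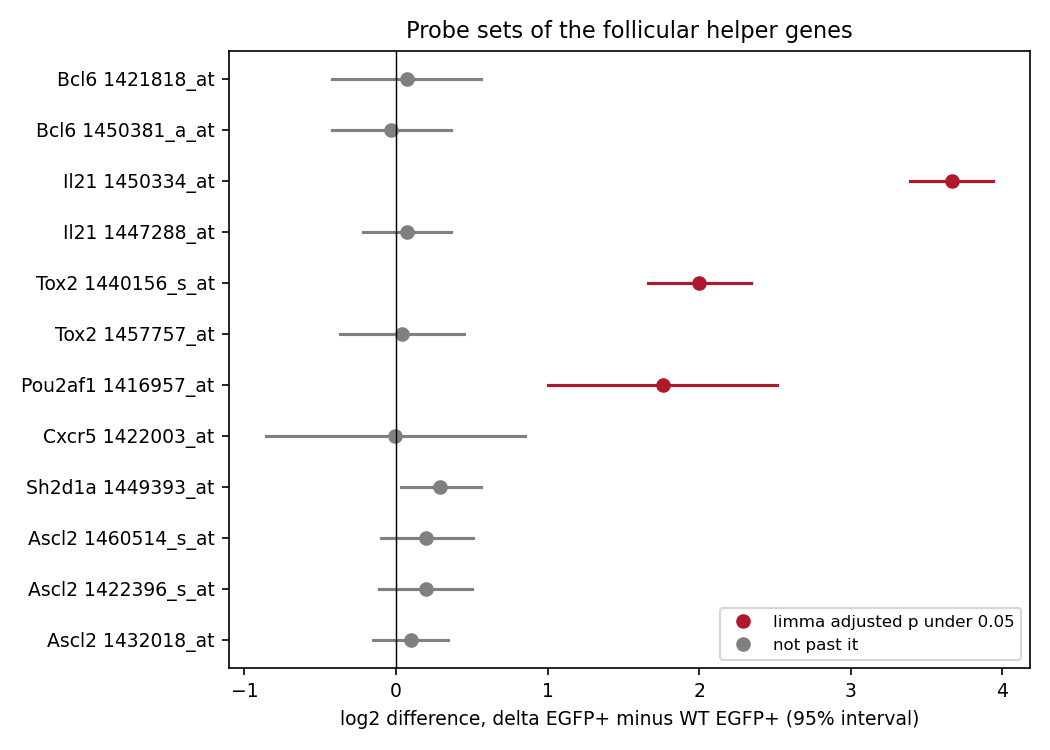
Log2 difference, delta EGFP+ minus WT EGFP+, with its 95% interval for each of the 12 probe sets (3 arrays against 3). The points in red, 1 probe set each of Il21, Tox2 and Pou2af1, passed the limma test, while the second probe sets of Il21 and Tox2 sit near 0.

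Each of the calls of Il21, Tox2 and Pou2af1 held without any 1 of the 6 EGFP+ arrays and with the mean of a list of immediate-early and heat shock genes as a covariate. That list, which can follow handling of the cells, had a mean log2 level of 10.02, 9.97 and 9.02 in delta EGFP+ arrays and 10.63, 9.83 and 10.7 in WT EGFP+ arrays. Of its 21 genes 1 rose (Ier3, by 2.12, limma adjusted p = 0.019) and 5 fell, among them Hspa1b (-3.45, 0.014) and Btg2 (-1.34, 0.0016). The Ier3 call was lost without WT EGFP+ replicate 1 (adjusted p = 0.065), delta EGFP+ replicate 1 (0.084) or delta EGFP+ replicate 2 (0.074), and the Hspa1b call without WT EGFP+ replicate 1 (0.053). Of the 6 listed NK cell markers 5 were measured and 2 rose, Nkg7 (3.66, limma adjusted p = 1.4e-05) and Eomes (0.91, 0.026). The summed NK list was 2285 to 2379 in delta EGFP+ and 1732 in delta EGFP- arrays, against 286 to 367 in WT EGFP+ and 302 in WT EGFP- arrays. Nkg7 was the brightest gene of the list in every array and carried most of the sum in delta arrays. It read 10.98, 11.03 and 11.07 in delta EGFP+ arrays against 7.2, 7.46 and 7.44 in WT EGFP+ arrays. The defining receptor Ncr1 stayed between 5.1 and 5.57 in the 6 EGFP+ arrays, and Klra8 between 3.65 and 3.91. Ncr1 read 6.41 in the delta EGFP- array, its highest level of the 8, against 5.37 in the WT EGFP- array. Their part in the differences of the 7 genes was not tested.

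The delta EGFP- array stood out for this set. It was the highest of the 8 arrays for all 7 genes and on all 12 probe sets, which held for 10.4% of all genes and 10.5% of all probe sets. With 1 array in this group, whether that is the condition or the array cannot be told apart. It held on all 12 probe sets after a repeated quantile normalization, after median centring and with a pseudocount of 16.

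Some markers of other cell types were highest in the delta EGFP- array as well. These were 4 of 12 for B cells (Pax5, Ebf1, Fcrla and Cd22), 2 of 5 for NK cells (Ncr1 and Eomes), 1 of 8 for myeloid cells (Tyrobp), 1 of 4 for plasma cells (Tnfrsf17) and 0 of 2 for CD8 T cells. In the delta EGFP- array against the WT EGFP- array the summed lists were 1732 against 302 for NK cells, 559 against 282 for CD8 T cells, 513 against 453 for myeloid cells, 1916 against 5448 for B cells and 328 against 1354 for plasma cells. Without Ighm the B cell sum was 617 against 519. Of the plasma cell markers, Jchain read 6.49 against 10.11. Sdc1 read 5.57 against 5.87, Mzb1 7.3 against 7.31 and Tnfrsf17 5.07 against 4.98. The 5 regulatory T cell markers summed to 4896 against 1092, and 0 of them were highest in the delta EGFP- array. Eomes read 8.73 in the delta EGFP- array against 6.25 in the WT EGFP- array, Cd8a 8.52 against 6.28, Cd22 7.55 against 6.37 and Tyrobp 7.43 against 6.54. Cd8b1, the other CD8 T cell marker, read 7.59 against 7.67. Of further NK cell markers, Nkg7 read 10.21 against 7.16, Klra8 3.76 against 3.65 and Klre1 4.56 against 4.89. The part of these cell types in the levels of the 7 genes was not tested.

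**Figure D3:**
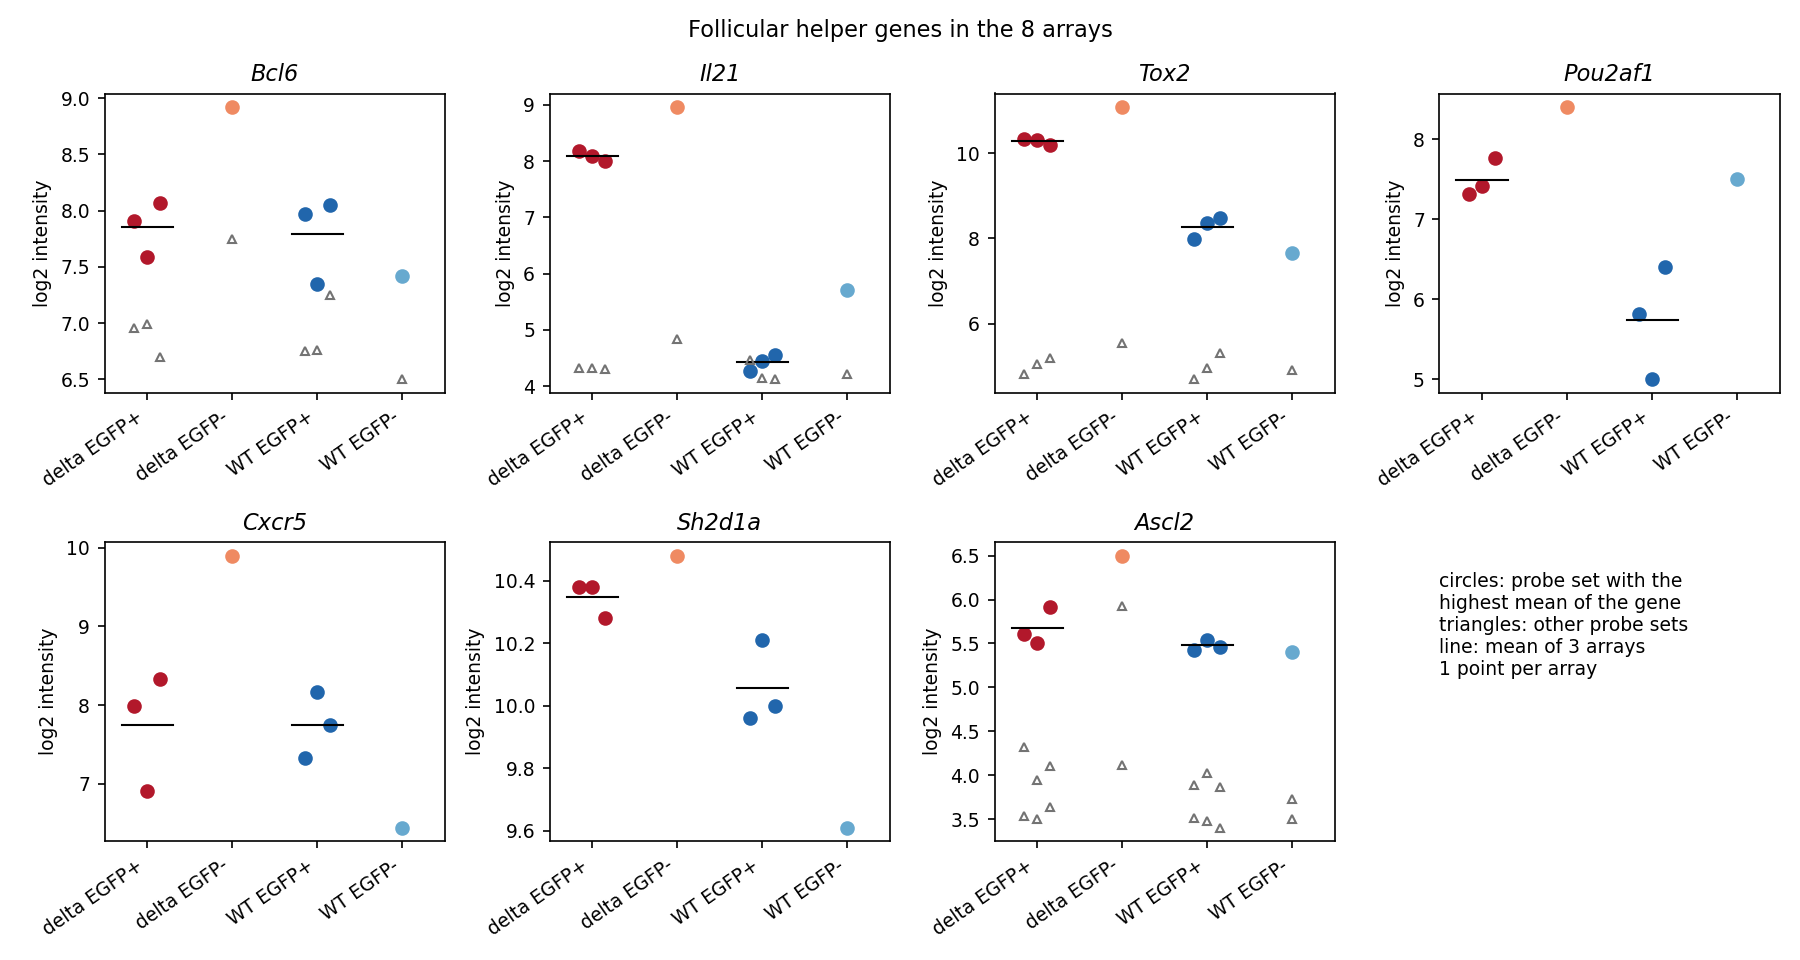
Log2 intensity of the 7 genes in each of the 8 arrays, by group, with 1 point per array, circles for the probe set with the highest mean, triangles for the others and a line at the mean of 3 arrays. The single delta EGFP- array is the top circle in all 7 panels, for instance 9.9 for Cxcr5, where the WT EGFP- array is at 6.44.

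Set against the single WT EGFP- array, 5 of 7 genes were at least 2-fold higher in the delta EGFP- array and 0 lower, against 3.78% and 1.04% of all genes, and the median difference was 1.51 against 0.002 over all genes. Single arrays were compared by their values, with no test. Cxcr5 read 9.9 in the delta EGFP- array against 6.44 in the WT EGFP- array, a difference of 3.46. Tox2 read 11.08 against 7.65 (3.43), and Il21 read 8.96 against 5.7 (3.26). Bcl6 read 8.92 against 7.42 (1.51), and its second probe set 7.75 against 6.5 (1.25). Each of these genes was over 2-fold higher on its brighter or only probe set. The second probe sets of Il21, with 4.83 against 4.21 (0.62), and of Tox2, with 5.55 against 4.9 (0.66), were less than 2-fold higher. Ascl2 followed with 6.5 against 5.4 (1.11) on 1460514_s_at, 5.93 against 3.73 (2.2) on 1422396_s_at and 4.12 against 3.5 (0.61) on 1432018_at. Pou2af1 read 8.4 against 7.5 (0.91) and Sh2d1a 10.48 against 9.61 (0.87). With a pseudocount of 16, 4 of 7 genes were at least 2-fold higher. Tox2, Cxcr5, Sh2d1a and Ascl2 had the WT EGFP- array as the lowest and the delta EGFP- array as the highest of all 8, 4 of 7 genes against 1.13% of all. Counts below of EGFP+ arrays all above the WT EGFP- array or all below the delta EGFP- array follow from such levels. They are no separate results.

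Within delta mice, every delta EGFP+ array was below the delta EGFP- array for all 7 genes, which held for 28.0% of all genes. That follows from the delta EGFP- array being the highest of the 8 arrays for each of them. None of the 7 passed the test with adjustment, against 0.066% of all genes called lower and 0.022% called higher, while 5 of 7 had an unadjusted p under 0.05, against 5.25%, all 5 of them lower: Bcl6, Il21, Tox2, Cxcr5 and Ascl2. The test assumes that the single array varies like the replicated groups. Cxcr5 differed most, by -2.16 (SE 0.52, 95% interval -3.36 to -0.95, limma adjusted p = 0.26), with 7.99, 6.91 and 8.33 in delta EGFP+ arrays against 9.9. Bcl6 followed with -1.06 (SE 0.3, 0.31), and its second probe set with -0.87 (SE 0.24, 0.3). Then came Pou2af1 (-0.91, SE 0.46, 0.59), Il21 (-0.87, SE 0.17, 0.16), Ascl2 (-0.83, SE 0.19, 0.23), Tox2 (-0.81, SE 0.21, 0.28) and Sh2d1a (-0.13, SE 0.16, 0.86). The median of the 7 was -0.87, against 0.02 over all genes.

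A single probe set of the 12 passed, against 0.0577% of all probe sets called lower. The second Ascl2 probe set 1422396_s_at read 4.32, 3.95 and 4.1 in delta EGFP+ arrays against 5.93 in the delta EGFP- array, a difference of -1.81 (SE 0.18, 95% interval -2.23 to -1.38, limma adjusted p = 0.033). This probe set was dim, at percentiles 3.82 to 53.2. The call was lost without WT EGFP+ replicate 1 (adjusted p = 0.094) or replicate 3 (0.1), without delta EGFP+ replicate 1 (0.077), 2 (0.11) or 3 (0.1), and with the 4 delta arrays alone (0.11), over a range of 0.0094 to 0.34. The third probe set, 1432018_at, read 3.53, 3.5 and 3.64 against 4.12 (-0.56, SE 0.15, 0.29). The 3 probe sets of Ascl2 thus shared their order and differed in size and call.

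Within WT mice the set did not move one way. Il21 was lower in WT EGFP+ arrays and passed the test, 1 of 7 genes, against 0.478% of all genes called lower and 1.02% called higher. It read 4.27, 4.45 and 4.56 in WT EGFP+ arrays against 5.7 in the WT EGFP- array, so that it fell by 1.28 (SE 0.17, 95% interval -1.67 to -0.88, limma adjusted p = 0.015). With the 4 WT arrays alone the adjusted p was 0.11, and with the title number as a block 0.14. Its second probe set read 4.47, 4.15 and 4.12 against 4.21, a difference of 0.04 (SE 0.18, 0.98). Pou2af1 read 5.81, 5.0 and 6.4 against 7.5, a difference of -1.76 (SE 0.46, 95% interval -2.83 to -0.7) that did not pass (limma adjusted p = 0.2). The B cell sum was 3357 to 7813 in these WT EGFP+ arrays against 5448 in the WT EGFP- array, and the plasma cell sum 380 to 1550 against 1354.

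The other 5 genes had a positive difference in WT mice and did not pass. Cxcr5 read 7.33, 8.17 and 7.75 in WT EGFP+ arrays against 6.44 in the WT EGFP- array (1.31, SE 0.52, limma adjusted p = 0.47). Tox2 read 7.99, 8.36 and 8.47 against 7.65 (0.62, SE 0.21, 0.35), and Sh2d1a 9.96, 10.21 and 10.0 against 9.61 (0.44, SE 0.16, 0.42). Every WT EGFP+ array was above the WT EGFP- array for these genes and for Ascl2 (0.08, SE 0.19, 0.96), 4 of 7 against 25.2% of all genes. Bcl6 had 7.97, 7.35 and 8.05 against 7.42 and overlapped (0.37, SE 0.3, 0.81). Without adjustment, Tox2, Cxcr5 and Sh2d1a were higher and Il21 and Pou2af1 lower, 3 and 2 of 7 against 5.54% and 5.37% of all genes.

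**Figure D4:**
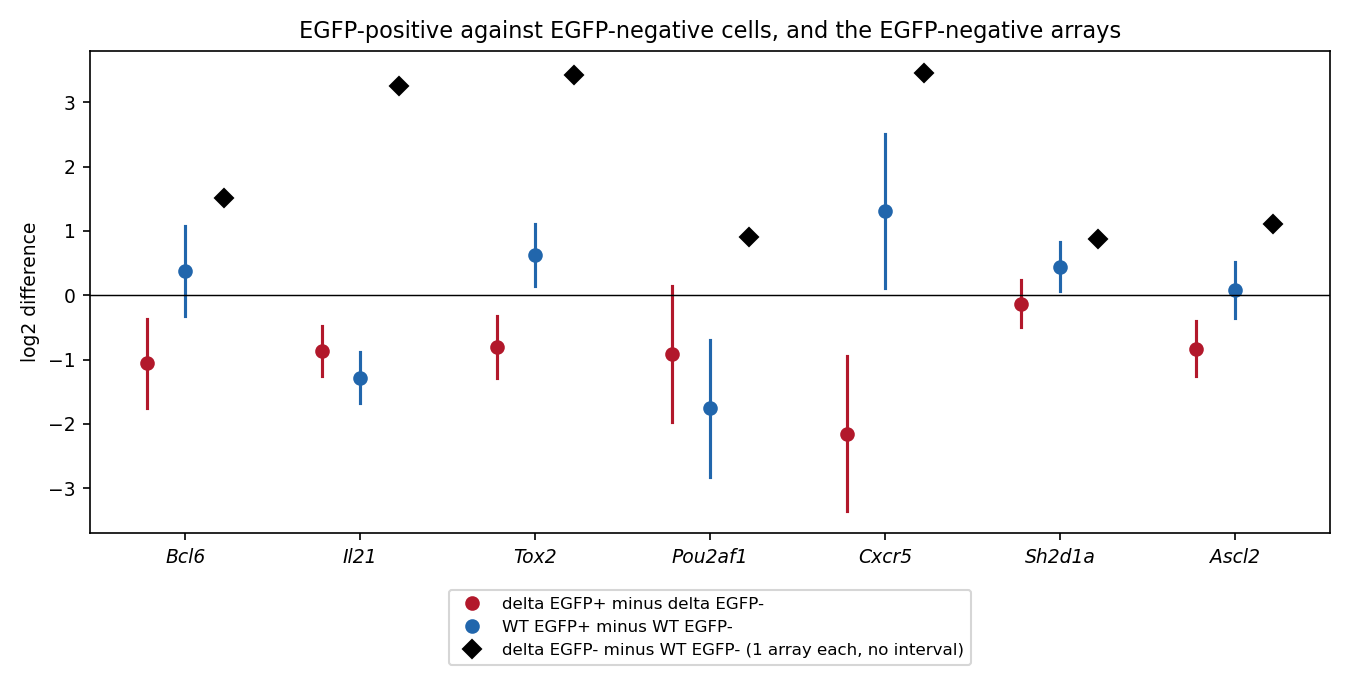
Log2 differences for the 7 genes: delta EGFP+ minus delta EGFP- and WT EGFP+ minus WT EGFP- with 95% intervals (3 arrays against 1 each), and delta EGFP- minus WT EGFP- as diamonds (1 array each, no interval). Cxcr5 lies at -2.16 within delta and at 1.31 within WT, and all 7 diamonds are above 0.

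The EGFP differences of the alleles were then set against each other. For Tox2, Cxcr5, Sh2d1a and Ascl2 every delta EGFP+ array was below the delta EGFP- array while every WT EGFP+ array was above the WT EGFP- array, 4 of 7 genes against 4.68% of all. On Bcl6 probe set 1450381_a_at and Ascl2 probe set 1422396_s_at it held too, which made 6 of 12 probe sets against 5.0% of all. All 6 had the delta EGFP- array as the highest and the WT EGFP- array as the lowest of the 8. These counts follow from those levels and are no separate result. The interaction, the delta difference minus the WT difference, was -3.46 for Cxcr5 (SE 0.73, 95% interval -5.16 to -1.76), -1.44 for Bcl6 (SE 0.42) and -1.43 for Tox2 (SE 0.29). None of the 7 passed with adjustment in limma (0.33 for Cxcr5, 0.61 for Bcl6, 0.31 for Tox2), against 0.044% of all genes called lower and 0.022% called higher. At an unadjusted p under 0.05, 5 of 7 were lower (Bcl6, Tox2, Cxcr5, Sh2d1a and Ascl2), against 3.63%. Il21 (0.41, SE 0.24, 0.9) and Pou2af1 (0.85, SE 0.65, 0.93) had positive interactions. Both genes were lower in EGFP+ than in EGFP- arrays of both alleles, by more in WT (-1.28 and -1.76) than in delta mice (-0.87 and -0.91). On the second Il21 probe set the interaction was -0.55 (SE 0.25, 0.84). The interaction rests on both single EGFP- arrays, and these comparisons share arrays with one another.

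The levels over the 4 groups followed more than one order. In Tox2 and Sh2d1a it ran delta EGFP-, delta EGFP+, WT EGFP+, WT EGFP-. Within it, only the step between delta EGFP+ and WT EGFP+ of Tox2 passed the test. In Il21 it ran delta EGFP-, delta EGFP+, WT EGFP-, WT EGFP+, and in Pou2af1 the delta EGFP+ mean, 7.49, and the WT EGFP- value, 7.5, were about equal between delta EGFP- above and WT EGFP+ below. Delta EGFP+ was not tested against WT EGFP-. In Cxcr5, Bcl6 and Ascl2 the delta EGFP- array was highest, the delta EGFP+ and WT EGFP+ means lay within 0.2 of each other and overlapped in their arrays, and the WT EGFP- value was below both means. Over the 8 arrays the pairwise correlation of the 7 genes ran from r = 0.27 (Pou2af1 and Cxcr5) to r = 0.93 (Il21 and Tox2), where all pairs share the groups and the high delta EGFP- array.

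Other genes of the follicular helper program were read from lists in delta EGFP+ against WT EGFP+ cells. Of 13 surface and cytokine partners 4 rose and 3 fell, with a median difference of 0.32 against 0.02 over all genes. The counts of this and the following lists are to be read against 10.4% of all genes called higher and 6.02% called lower. Il4, the other cytokine of these cells and of Th2 cells, averaged 9.75 ± 0.1 in delta and 4.74 ± 0.09 in WT EGFP+ arrays (SD, n = 3 each), a rise of 5.01 (SE 0.11, limma adjusted p = 3e-06). The inhibitory receptor Pdcd1 rose by 1.53 (0.01), the CD30 ligand Tnfsf8 by 1.44 (0.038) and the costimulator Icos by 0.83 (0.0032). Receptors of IL-6, a cytokine that starts the program, fell: Il6ra by 2.51 (0.00025) and its partner Il6st by 1.36 (0.013), while Cd28 fell by 0.66 (0.031). Leaving out WT EGFP+ replicate 1, delta EGFP+ replicate 1, WT EGFP+ replicate 3 or delta EGFP+ replicate 3 ended the calls of Tnfsf8 (adjusted p = 0.069, 0.13, 0.055 and 0.11) and of Cd28 (0.11, 0.096, 0.099 and 0.081). The first 2 of these also ended that of Il6st (0.056 and 0.057). The mean of the immediate-early and heat shock genes as a covariate ended the calls of Tnfsf8 (0.096) and Cd28 (0.19). The title number as a block ended that of Cd28 (0.073).

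Among transcription factors that promote the program, 9 of 11 listed were measured, 1 rose and 1 fell, with a median of -0.21. Batf, an AP-1 family factor, rose by 0.66 (limma adjusted p = 0.0097), and Lef1, a partner of TCF-1, fell by 1.09 (0.0029). Maf did not pass on its brightest probe set, which stood for it (0.37, limma adjusted p = 0.3). Its other probe sets gave larger positive differences, of 1.61, 1.46, 0.96, 0.83 and 0.68. These are given without a test and did not enter the counts. Of 9 factors that oppose the program 3 rose and 5 fell, with a median of -0.75. Tbx21, the Th1 factor T-bet, rose by 3.46 (0.00031), Id2, an inhibitor of E proteins, by 1.69 (0.0037), and Prdm1, which encodes Blimp-1 and represses Bcl6, by 1.5 (0.0087). Foxo1 fell by 1.81 (0.00025), Klf2 by 1.38 (0.0008) and Foxp1 by 1.15 (0.0074), all factors of quiescent T cells. Prdm1 was no longer called with the immediate-early and heat shock mean as a covariate (0.053). Both directions were thus present among promoting and among opposing factors.

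Of the receptors that hold T cells in the T zone or guide their exit, 4 of 5 listed were measured, 0 rose and 2 fell. S1pr1, the egress receptor, fell by 1.53 (limma adjusted p = 0.0037), and Ccr7, the T zone receptor, by 1.59 (0.042). The Ccr7 call was lost without any 1 of the EGFP+ arrays other than WT EGFP+ replicate 2, at adjusted p between 0.074 and 0.14, and with the covariate (0.23). The median of the 4 was -0.95. Cxcl13, the ligand, lay near the median of all probe sets, with 5.75 ± 0.05 in delta and 5.47 ± 0.28 in WT EGFP+ arrays (SD, n = 3 each; difference 0.28, 0.32).

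Beside Sh2d1a, 11 genes of the SLAM pathway were measured, of which 3 rose and 1 fell, with a median of -0.04. The SLAM receptor Slamf7 rose by 2.43 (limma adjusted p = 6.5e-05), averaging 7.23 ± 0.15 in delta and 4.8 ± 0.08 in WT EGFP+ arrays (SD, n = 3 each). Slamf6, a receptor that signals through SAP, rose by 1.02 (0.0041), and Ptpn11, the phosphatase SHP-2, by 1.03 (0.0014). Prkcq, the T cell kinase PKC-theta, fell by 0.6 (0.015), a call lost without delta EGFP+ replicate 1 (0.06) or WT EGFP+ replicate 3 (0.055) and with the covariate (0.076). Of 8 genes of IL-21 signalling 6 were measured, 0 rose and 2 fell, with a median of -0.38. These were the feedback inhibitor Socs3 (-0.77, 0.026) and the kinase Jak1 (-0.66, 0.016). The Socs3 call was lost without WT EGFP+ replicate 1 (0.076) or replicate 3 (0.086), with the covariate (0.075) and with the title number as a block (0.05). The Jak1 call was lost without WT EGFP+ replicate 1 (0.059) or 3 (0.052) or delta EGFP+ replicate 1 (0.061) or 3 (0.053), and with the covariate (0.087). Of 5 corepressors of Bcl6 3 were measured and 0 passed, and at an unadjusted p under 0.05 2 were lower, against 11.7% of all genes: Bcor (-0.48, adjusted 0.077) and Bcorl1 (-0.27, 0.17).

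**Figure D5:**
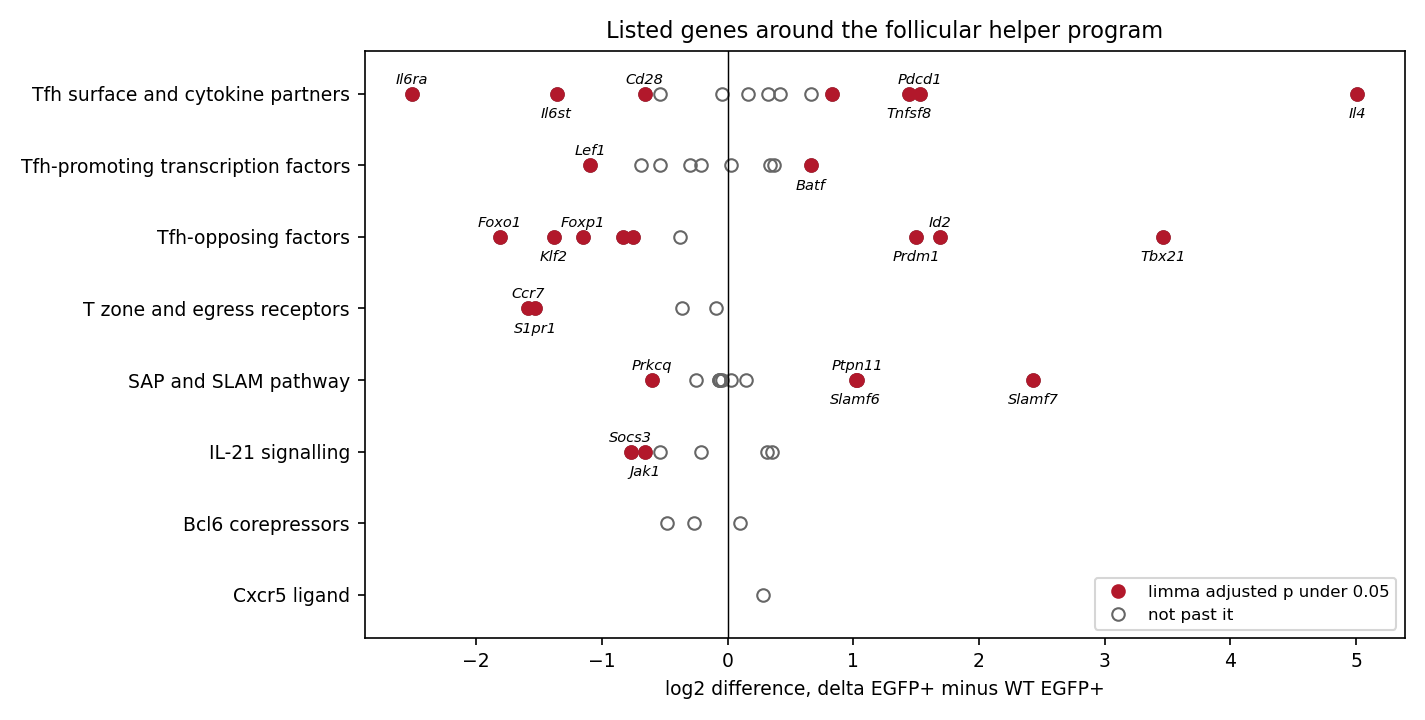
Log2 difference, delta EGFP+ minus WT EGFP+, of each measured gene of 8 lists around the follicular helper program, 1 point per gene. Filled points passed the limma test, from Il4 at 5.01 to Il6ra at -2.51, and filled points lie on both sides of 0 in 4 of the lists.

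The same lists were read in the other comparisons. Within delta mice 1 listed gene passed, Il2ra, the high-affinity IL-2 receptor chain, which opposes the program, with 9.19 ± 0.22 in delta EGFP+ arrays (SD, n = 3) against 7.47 in the delta EGFP- array (1.72, limma adjusted p = 0.046). Within WT mice Il2ra rose by 4.56 (0.00048), Icos by 1.69 (0.0048), the factor Maf by 1.85 (0.026) and Slamf1 by 1.45 (0.04), and Il4 fell by 1.34 (0.0095), with 4.74 ± 0.09 in WT EGFP+ arrays (SD, n = 3) against 6.08. Il4 and Il21 were thus both lower in WT EGFP+ arrays than in the WT EGFP- array. With the 4 WT arrays alone the calls of Icos, Il4, Maf and Slamf1 were lost, at adjusted p between 0.06 and 0.14. The Il2ra call within delta mice was lost without any 1 EGFP+ array other than WT EGFP+ replicate 2, at adjusted p between 0.11 and 0.14, and with the covariate (0.062). That of Maf was lost without WT EGFP+ replicate 1 (0.069), delta EGFP+ replicate 1 (0.073) or delta EGFP+ replicate 2 (0.054), and that of Slamf1 without WT EGFP+ replicate 1 (0.05) or 3 (0.13) or delta EGFP+ replicate 1 (0.08), 2 (0.051) or 3 (0.074).

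Between the single EGFP- arrays, 5 of the 13 surface and cytokine partners were at least 2-fold higher in the delta EGFP- array and 0 lower, against 3.78% and 1.04% of all genes. Pdcd1 read 9.86 in the delta EGFP- array against 6.32 in the WT EGFP- array, and Il4 9.13 against 6.08. Of the promoting factors 3 of 9 were higher by this measure: Maf with 11.49 against 9.58, Irf4 with 8.89 against 7.14 and Batf with 11.15 against 9.98. Of the opposing factors 2 of 9 were higher, Il2ra (7.47 against 5.38) and Tbx21 (8.52 against 7.11), and 1 lower, Foxo1 (10.84 against 12.14). Socs1, a feedback inhibitor of cytokine signalling, read 9.01 against 6.98. These values have no replicate check.

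For each of the 7 genes the most similar profiles over the 8 arrays were sought among 4294 other genes whose mean was above the median and whose SD was at least 0.3. Bcl6 was most like Tnfrsf14 (r = 0.961), Il21 most like Gpsm2 (0.994), Tox2 most like Slc31a1 (0.984) and Pou2af1 most like Syne2 (0.956). Cxcr5 was most like Socs1 (0.956), Sh2d1a most like Plaat3 (0.974), followed by Pdcd1 (0.972), and Ascl2 most like Gm10451 (0.961). Plac8, also among the 3 nearest of Il21 (0.988), had 10.13 on average in delta EGFP+ and 11.21 in delta EGFP- arrays against 6.67 in WT EGFP+ and 8.34 in WT EGFP- arrays. Igsf23 was among the 3 nearest of both Bcl6 (0.937) and Cxcr5 (0.89), with 9.08 in delta EGFP+ and 10.02 in the delta EGFP- array against 9.1 in WT EGFP+ and 8.83 in the WT EGFP- array. The points of such a correlation share 4 groups, and the single EGFP- arrays weigh heavily in it.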

How the data were processed

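RNA from 8 samples of sorted mouse CD4+ T cells was hybridised to Affymetrix expression arrays, 1 per sample. The intensity values were deposited by the authors after RMA, per the submitters' processing notes, and the values themselves show a linear scale. No source used here gives the version of the software or says that the arrays were normalized in a single run. Samples were grouped by their titles, and replicate numbers follow accession order and name samples only.

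Of 45101 probe sets, 64 controls were left out. Of the 45037 tested, 34945 had 1 gene symbol, 932 had several and 9160 are unnamed here, and 34741 matched a current RefSeq gene record. Where a gene had several probe sets, the brightest on average stood for it. Log2 values, without pseudocount or filter, were fitted in limma 3.58.1 (R 4.3.3) with 1 mean per group over all 8 arrays (4 residual and 3.72 prior degrees of freedom), two-sided. P-values were adjusted by Benjamini and Hochberg across all probe sets tested, with a threshold of 0.05. The fit gives the single EGFP- arrays the spread of the groups of 3. The number of arrays limits the precision.

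The 7 members, the 9 gene lists and the 7 marker lists were chosen with earlier results of these data known. Named genes were all probe sets of the members, Foxp3, up to 3 listed genes past the threshold per list, comparison and direction by size (up to 2 with the smallest p where none passed), and the 3 most similar profiles per member. Icos and Maf in the comparison of EGFP+ cells, the single-array values and the marker genes were named after their values were seen. Alternatives covered scaling, a filter, a pseudocount of 16, the variance prior, array weights, the arrays fitted, the title number as a block, a covariate, the choice of probe set and leaving out arrays.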

Additional observations from a re-analysis of the deposited data

Results flagged for a closer look

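The EGFP difference (EGFP+ minus EGFP-) was set between the alleles, as the delta difference minus the WT difference on the log2 scale, and the sign of every array was read as well. For 6 probe sets of the follicular helper genes, every delta EGFP+ array was below the delta EGFP- array while every WT EGFP+ array was above the WT EGFP- array, 6 of 12 against 5.0% of all probe sets. On each of the 6 the delta EGFP- array was the highest of all arrays and the WT EGFP- array the lowest. The signs follow from those levels. None of the 6 interactions passed limma's test in the main fit. They were -3.46 for Cxcr5 (adjusted p = 0.33), -2.0 for Ascl2 on 1422396_s_at (0.07), -1.43 for Tox2 on 1440156_s_at (0.31), -1.28 for Bcl6 on 1450381_a_at (0.5), -0.91 for Ascl2 on 1460514_s_at (0.58) and -0.57 for Sh2d1a (0.77). That of Ascl2 on 1422396_s_at gained the call with a variance prior using trend and robust settings (-2.0). It did so too without WT EGFP+ replicate 2 and delta EGFP+ replicate 3 together (-1.94). All 6 interactions rest on the single EGFP- arrays.

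Among the listed genes, the interaction passed the test for Il2ra, at -2.85 (limma adjusted p = 0.045). Leaving out any 1 EGFP+ array other than WT EGFP+ replicate 2 lost that call, at adjusted p between 0.088 and 0.14, and so did the title number as a block (0.22) and the covariate (0.056). Foxp3 passed at 4.9 (0.0044), on the probe set whose low level in the WT EGFP+ arrays goes against their label, and lost the call with the title number as a block (0.11).

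Further listed genes differed in sign between the alleles in every array without passing. The interaction was 1.96 for Il4 (limma adjusted p = 0.055), -1.72 for Socs1 (0.53), -1.51 for Socs3 (0.41), -0.62 for Dnaja1 (0.74) and 0.56 for Slamf7 (0.8). No group had 4 arrays or more, so none was examined for a single array far from the others.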

How the results depend on the processing

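Il21 and Pou2af1 were called higher in delta EGFP+ than in WT EGFP+ cells under all 18 alternatives (adjusted p 4e-06 to 0.0013 and 0.0045 to 0.043), and Tox2 under 17, lost with the most specific suffix (0.04, adjusted p = 0.94), which left 2 of 7 genes called. With the mean of a gene's probe sets the difference was 1.87 for Il21 and 1.02 for Tox2, both called. Leaving out 1 EGFP+ array gave 3 to 3 calls there, 0 to 0 between delta EGFP+ and delta EGFP-, 1 to 1 between WT EGFP+ and WT EGFP- and 0 to 0 for the interaction. Within WT, the count was 0 with the 4 arrays alone, 0 with the title number as a block and 2 (Il21, Pou2af1) without WT EGFP+ replicate 2 and delta EGFP+ replicate 3 together. Within delta, it was 1 with the mean of a gene's probe sets (Ascl2, adjusted p = 0.032) and 1 without those arrays together (Cxcr5, 0.047).

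Apart from the Il21 interaction, the differences that changed sign were all under 0.1 in size. For delta EGFP+ minus WT EGFP+, Cxcr5 (-0.005) gave 0.01 after repeated quantile normalization, 0.02 after centring, 0.002 with the pseudocount, 0.01 with array weights and -0.3 to 0.41 without 1 array. Bcl6 (0.07) gave -0.05 with weights, -0.26 without WT EGFP+ replicate 2 and delta EGFP+ replicate 3 together and -0.15 to 0.2 without 1 array, and its second probe set (-0.03) gave 0.18 with the covariate and -0.12 to 0.13 without 1 array. The second Tox2 probe set (0.04) gave -0.01 with weights, -0.04 with the covariate, -0.06 without those arrays together and -0.11 to 0.2 without 1 array. Within WT it (0.08) gave -0.16 with the block and -0.08 to 0.23 without 1 array, the second Il21 probe set (0.04) gave -0.07 to 0.1 without 1 array, and Ascl2 (0.08) gave -0.04 with the most specific suffix. The interaction of Il21 (0.41) gave -0.07 with the mean of its probe sets. The cause was not tested.

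Of the members' other values under alternatives, 754 kept sign and side of the threshold, 10 lost and 5 gained the call. Of those of the listed genes, 512 kept both and 77 lost the call. The interaction could not be fitted with the arrays of 1 allele alone, and dim probe sets had no value under the filter. The single-array counts under other scalings were chosen after seeing the data. The labels give no replicate numbers that groups share, so the main fit used no pairing. Pairing of EGFP+ arrays by title set entered only through the block alternative and the differences within the sets. The block follows the opening digits of the titles, whose meaning no source used here gives. Dim probe sets and 1 array in each EGFP- group are limits of these results.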
